A study of Mus musculus with 8 samples.

Results

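The DEAD-box (Ddx) and DEAH-box (Dhx) RNA helicases were followed across 8 single-colour Agilent microarrays, all from mouse embryonic stem cells on day 6 of their induction towards neural progenitors. The members were taken by name: every probe that was not a control and whose gene name in the scanner files starts with Ddx or Dhx followed by a digit. This gave 70 of 55681 probes and 53 of 36373 gene names, 37 of them Ddx and 16 Dhx. The 4 control arrays came from cells with a control hairpin (shCtrl), and the 4 knockdown arrays from cells with a hairpin against Zrf1 (shZrf1). All were labelled RGC-like NPC, so the design asks how transcripts differ when Zrf1 is depleted during induction. Neither the strain, nor the cell line, nor the hairpin's sequence is given in the sources used here. The labels do not say that the replicates came from separate cultures, and the names of the knockdown arrays carry only the numbers 2 and 3, each on 2 arrays, 1 of them tagged TR, whose meaning is not stated. Whether the 4 knockdown arrays are 4 independent samples cannot be told from these names. The p-values therefore measure the spread between these samples, which may be technical.

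RNA helicases of both families use ATP to open RNA duplexes or to strip proteins from RNA, and are named after a conserved motif in their helicase core. DEAD-box proteins mostly pry short duplexes apart locally, whereas DEAH-box proteins move along a strand. Together they serve transcription, splicing, export, translation and decay of mRNA and, in the nucleolus, the assembly of ribosomes. A few members sense viral RNA or act in germ cells.

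Signals are given as log2 values after subtraction of the array's own 75th percentile, so that 0 marks this percentile, and levels of different probes are not compared. A change is the knockdown mean minus the control mean on this log2 scale. Between 53.4% and 60.3% of the 59305 spots per array were well above background and none was saturated, and 8 arrays limit the precision. Zrf1, now named Dnajc2, fell from 1.87 ± 0.11 to -2.32 ± 0.23 (SD, n = 4), which is 18.3-fold lower (limma adjusted p = 1.14e-07), in the direction the labels give. The neural progenitor markers averaged 2.82 to 2.9 per array in control and 0.31 to 0.56 in knockdown cells, with 8 of 9 lower and none higher by the same test. All 9 tested endoderm markers of 10 rose, from averages of -3 to -2.76 to averages of -0.48 to -0.28. Signal in a single group was enough for a test, so a marker dim in control cells entered only if bright in knockdown cells. This count of rises, and those of the mesoderm and fibroblast or feeder markers below, may rest partly on this selection. Control means of Afp (-5.99) and Sox7 (-5.2) lay among the control signals (-6.58 to -5.03) of a Ddx17 probe above background on no array. The endoderm averages in control cells may thus include floor values. The 5 pluripotency markers averaged 2.72 to 2.9 and then 1.76 to 1.89, and 3 fell and Klf4 (0.58) rose. Of 5 neuron markers 4 fell and Stmn2 (2.25) rose, with averages of -0.03 to 0.16 and then -1.26 to -0.81. Of 3 tested mesoderm markers of 6, 2 rose (averages -2.75 to -2.61 and then -0.93 to -0.86), and of 5 tested fibroblast or feeder markers of 6, 3 rose (-0.05 to 0.08 and then 1.48 to 1.56), among them Thy1 (3.98) and Tagln (1.9). These markers of other cell states moved with the knockdown beside every comparison below, and their part in the helicase values was not tested. In bulk RNA fewer cells of a type and less RNA per cell cannot be told apart.

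Most helicases of both families were lower in knockdown than in control cells. Of the 53 genes, 52 were tested, because Ddx60 had no array on which its probe stood well above background. Among the 36 tested Ddx genes, 25 fell and 3 rose at a limma adjusted p under 0.05, and among the 16 Dhx genes 9 fell and 1 rose. That makes 69.4% of the Ddx genes and 56.2% of the Dhx genes lower, beside 28.7% of all 21750 genes tested. Over both directions 73.1% of the helicases passed, against 58% of all genes tested, and 7.69% of the helicases and 29.3% of all genes tested rose. The groups did not overlap in 38 helicases (73.1%) and in 55% of all genes, and in 33 helicases every knockdown array was below every control array (27.3% of all genes). Of the 4719 genes whose mean signal lay within the interquartile range of the members' signals, 40.6% fell.

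The medians of the 2 families lay close together. The median change was -0.38 for Ddx and -0.39 for Dhx genes, against 0.04 for all genes, with ranges from -1.09 to 1.83 and from -1.3 to 1.14. Set against the mean of the control arrays, the median Ddx gene lay between -0.03 and 0.03 on the control arrays and at -0.38, -0.34, -0.31 and -0.4 on knockdown arrays 1 to 4. The median Dhx gene lay between -0.05 and 0.04 on the control arrays and at -0.35, -0.34, -0.41 and -0.34 on the knockdown arrays. Every knockdown array was thus low for both families, and no test of a difference between the families was made. The changes were modest in size: 3 helicases fell at least 2-fold (7.46% of all genes did) and 2 rose as much (10.4% of all genes did). These counts turn on the processing. On the authors' deposited values Dhx9, Ddx51 and Ddx58, the 3 that fell so far, changed by -1, -0.96 and -0.93. Of the 2 that rose, Ddx4 changed by 1.54 and Dhx58 by 0.66 on those values.

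**Figure D1:**
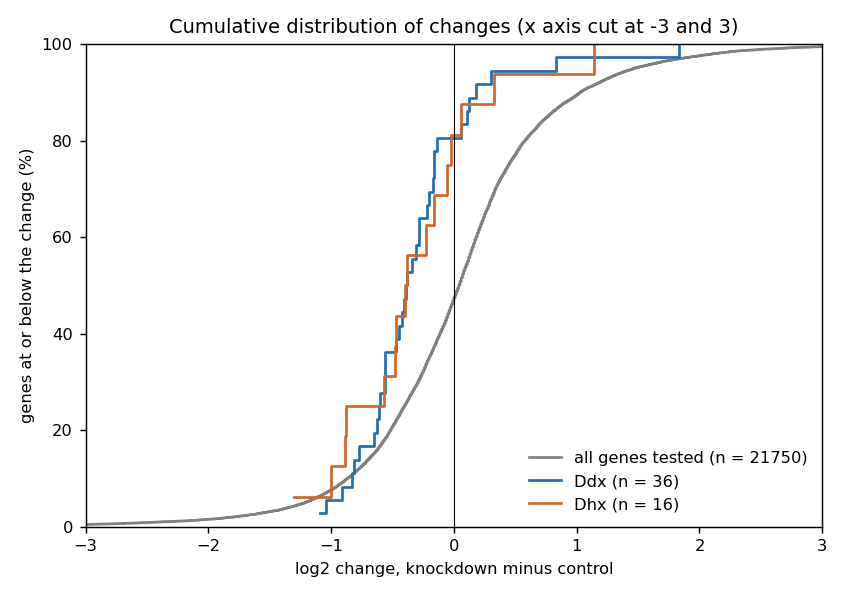
Cumulative share of genes (y axis, percent) at or below a given log2 change, knockdown minus control (x axis), for all 21750 genes tested (grey), 36 Ddx genes (blue) and 16 Dhx genes (orange). Both helicase curves run left of the grey curve over most of the range, with 80.6% of Ddx and 81.2% of Dhx genes below 0 against 47.1% of all genes.

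Scaling bears on these counts. With each array's median in place of its 75th percentile, the median change of all genes moved from 0.04 to -0.13. The share of all calls that were higher moved from 50.5% to 37.3%. The family medians relative to all genes, -0.42 and -0.43, could not move, because this scaling shifts every gene of an array alike. On the authors' deposited values they were -0.29 for both.

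The 5 helicases of transcription and general RNA processing included Dhx9, whose fall was the largest of any member in the fit and in 21 of 23 alternatives. Ddx51 fell most in the other 2, with normexp background and the 75th percentile (Dhx9 -0.89, Ddx51 -1.05) and without both knockdown arrays numbered 2. Dhx9, an RNA helicase that links transcription factors to RNA polymerase and resolves RNA and DNA structures, had control signals of -1.1, -0.86, -1.22 and -0.82 and knockdown signals of -2.51, -2.47, -2.04 and -2.16. The highest knockdown array lay below the lowest control array, and the change of -1.3 (SE 0.14) made Dhx9 2.46-fold lower (limma adjusted p = 8.29e-05). Ddx20, the helicase of the SMN complex that assembles spliceosomal ribonucleoproteins, went from 3.43, 3.51, 3.48 and 3.36 to 2.69, 2.7, 2.57 and 2.57. That is a change of -0.81 (limma adjusted p = 1.57e-05), with arrays of a group within 0.15 of each other. Of the paired coregulators Ddx5 and Ddx17, Ddx17 fell by 0.65. Its partner Ddx5 gave 4.48, 4.58, 4.25 and 4.58 in control and 4, 4.11, 4.23 and 4.2 in knockdown cells, so that its change of -0.34 (limma adjusted p = 0.0156) left control array 3 barely above the knockdown arrays. Ddx1, part of the tRNA ligase complex, did not pass (-0.14, adjusted p = 0.524).

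Of the 9 splicing helicases 6 (66.7%) fell and none rose, against 65.4% lower over all helicases tested and 28.7% over all genes tested. The splicing helicases act in turn on the spliceosome, each releasing or remodelling a set of RNA contacts. Dhx38, which acts between the catalytic steps, had signals of 1.5, 1.66, 1.53 and 1.32 in control and 0.69, 0.47, 0.59 and 0.74 in knockdown cells, a change of -0.88 (limma adjusted p = 7.74e-05), with every knockdown array below every control array. The other members that fell were Ddx41 (-0.63), Dhx16 (-0.48), Ddx42 (-0.47), Ddx23 (-0.42) and Dhx35 (-0.38). Ddx23, which frees the 5′ splice site, lost its call in 11 of 23 alternatives. Dhx15 (-0.23), Ddx46 (-0.16) and Dhx8 (0.06) did not pass the test. Ddx46, which has 2 tested probes, passed as lower on the authors' deposited values (-0.63, limma adjusted p = 0.000835) and in 4 other alternatives that kept all arrays. On the authors' values and in both alternatives with normexp background, the other probe stood for Ddx46. That probe already gave -0.74 in the fit over probes (limma adjusted p over probes = 0.00116). Dhx8, which releases the spliced mRNA, had a high array in each group, at 3.25 in control array 1 and in knockdown array 4, with the others between 2.46 and 2.79. Both high arrays were on slide 3, which held no other array.

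Of the 4 export helicases 3 (75%) fell, against 28.7% of all genes tested. Ddx39, now named Ddx39a, which loads export factors onto mRNA, had control signals of 5.74, 5.81, 5.98 and 5.83 and knockdown signals of 5.11, 5.09, 5.07 and 5.01. The change of -0.77 (limma adjusted p = 2.92e-05) was several times the spread within either group. Its paralogue Ddx39b, listed in the files as Bat1a and so outside the name rule, changed by -1.16 (limma adjusted p = 5.16e-06) and was looked up after the members' values were seen. Ddx25, a helicase known from testis, fell by 0.41. The nuclear pore helicases Ddx19a and Ddx19b gave -0.31 (limma adjusted p = 0.00449) and 0.18 (adjusted p = 0.0617). On the authors' deposited values Ddx19b was higher by 0.27 (limma adjusted p = 0.00793).

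Ribosome biogenesis was the largest role, and 11 of its 16 helicases (68.8%) fell while 1 rose. Over all helicases tested 65.4% fell, and over all genes tested 28.7% fell and 29.3% rose. Ddx51, which acts in maturation of the large subunit's rRNA, had signals of 2.43, 2.48, 2.28 and 2.44 in control and 1.42, 1.45, 1.23 and 1.17 in knockdown cells. It was 2.13-fold lower (change -1.09, SE 0.09, limma adjusted p = 1.37e-05), with a gap between the groups wider than the range of either. Dhx37, needed for the small subunit, went from -0.1, 0.04, -0.31 and -0.05 to -1.07, -1, -1.03 and -0.86, a change of -0.89 (limma adjusted p = 5.49e-05). Ddx52, Ddx18, Ddx27, Dhx33, Ddx49, Ddx56, Ddx10, Ddx21 and Ddx31 fell by 0.22 to 0.61. Ddx47, Ddx54, Ddx24 and Ddx55 did not pass, and the arrays of Ddx55 ran from -2.87 to -1.33 in control and from -2.83 to -0.87 in knockdown cells, too wide to show a change of the size seen elsewhere. In both groups the higher values of Ddx55 were those of slide 2, at -1.33 and -1.55 in control and -1.76 and -0.87 in knockdown cells.

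Ddx50 went against the rest of this role. It is the nucleolar paralogue of Ddx21, and its signals of 2.02, 2.04, 1.9 and 1.88 in control rose to 2.87, 2.91, 2.64 and 2.76 in knockdown cells. The lowest knockdown array lay well above the highest control array, and the gene was 1.78-fold higher (change 0.83, SE 0.08, limma adjusted p = 4.19e-05). Ddx21 itself had signals of 2.59, 2.54, 2.59 and 2.53 in control and 2.18, 2.38, 2.37 and 2.19 in knockdown cells (change -0.28, limma adjusted p = 0.00868; -0.17 and 0.125 on the authors' deposited values). The paralogues thus lay on opposite sides of 0, with changes 1.12 (SE 0.1) apart. This pair was set side by side after its values were seen, so no test of the difference is given.

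Ribosome assembly genes outside the helicases were mostly lower too. Of 38 ribosome biogenesis genes that are no helicases, 28 (73.7%) fell and 1, Wdr43, rose, with a median change of -0.55. Over all genes tested 28.7% fell and 29.3% rose. Those with the smallest adjusted p were the large-subunit assembly factors Pes1 (-2.65) and Rrs1 (-0.9), the small-subunit factor Tsr1 (-0.72) and Nop56 (-1.25), a core protein of box C/D snoRNPs. Among 30 tested partners of helicases, such as the G-patch proteins that switch DEAH-box enzymes on, 19 (63.3%) fell and 2 rose, and the median change was -0.4. Gpatch4 changed by -1.52, Gpatch3 by -1.79, Thoc1 by -1.35 and Nkrf by -1.32. RNA helicases that the name rule leaves out, whatever their family, gave 10 (58.8%) lower and 3 (17.6%) higher of 17 tested. Dicer1, which cuts miRNA precursors, was at -1.02 and Skiv2l of the exosome cofactor complex at -0.99. The translation factor Eif4a2 and the coactivator Helz2 were at 1.27 and 1.54. The medians of these 3 lists, -0.55, -0.4 and -0.38, stood near or below those of the Ddx and Dhx genes.

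**Figure D2:**
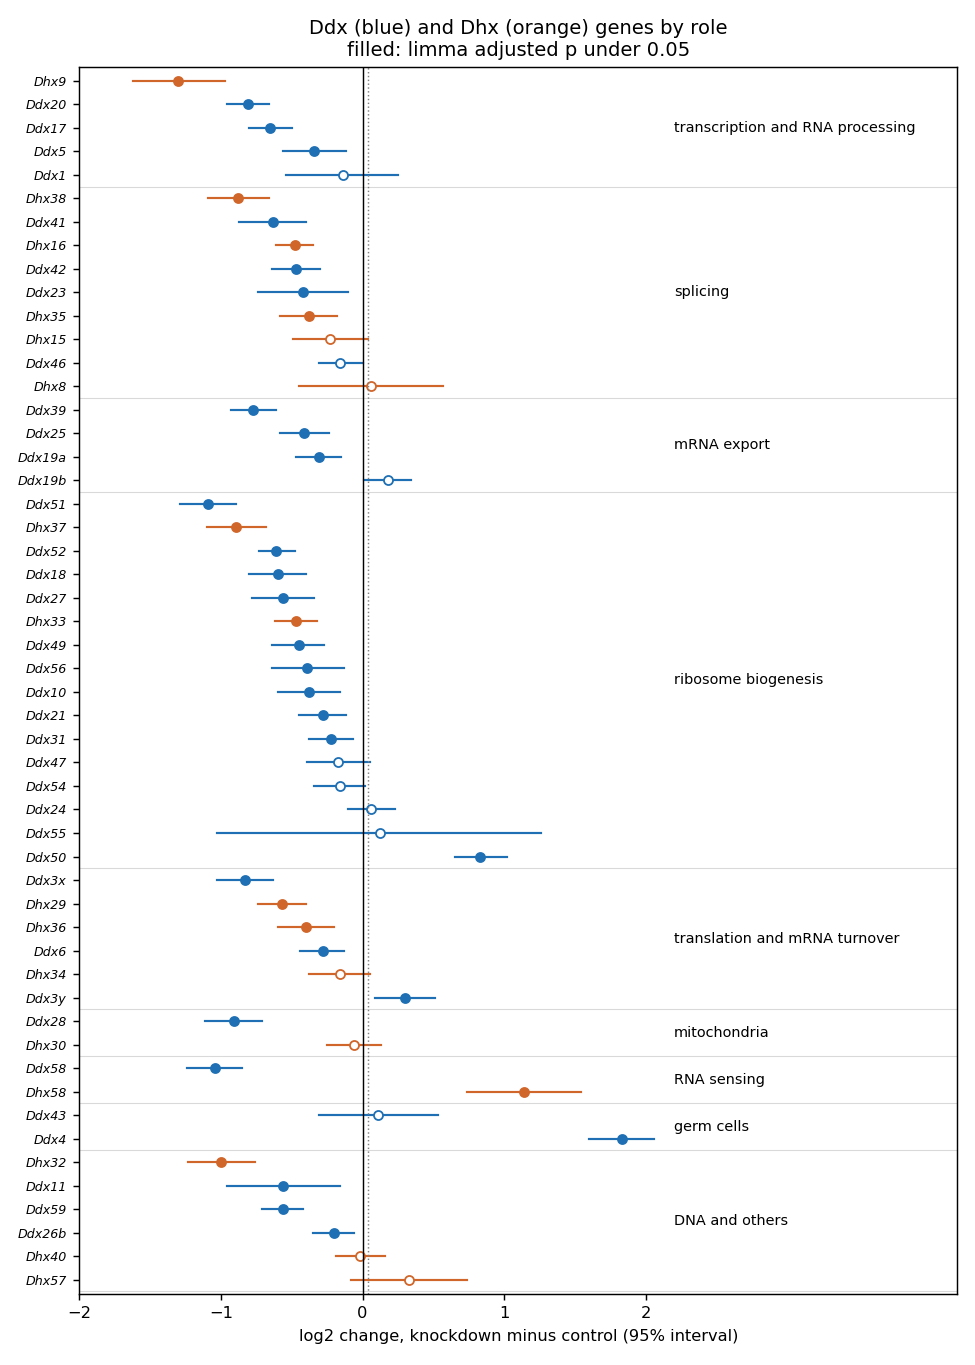
Log2 change, knockdown minus control (x axis), of the 52 tested helicase genes, grouped by role, with 95% intervals from the limma fit; blue marks Ddx and orange Dhx genes, filled points passed an adjusted p of 0.05, and the dotted line is the median of all genes. Most points lie left of 0, and the furthest right are Dhx58 (1.14) among the RNA sensors and Ddx4 (1.83) among the germ cell genes.

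Of the 6 helicases of translation and mRNA turnover 4 (66.7%) fell and 1 rose, against 28.7% and 29.3% of all genes tested. Ddx3x, which helps ribosomes load on structured mRNAs, had signals of 4.97, 5.03, 5.13 and 4.86 in control and 4.14, 4.01, 4.29 and 4.22 in knockdown cells, a change of -0.83 (SE 0.09, limma adjusted p = 6.82e-05). All 4 knockdown arrays lay at least 0.57 below the control arrays. Its homologue on the Y chromosome, Ddx3y, gave 0.67, 0.8, 0.46 and 0.8 in control and 0.94, 1.05, 1.04 and 0.91 in knockdown cells, a change of 0.3 (SE 0.09, limma adjusted p = 0.0198). The rise was small, and it was 0.13 (adjusted p = 0.359) when arrays were scaled to their medians. Dhx29, which supports scanning by the small subunit, fell by 0.57, Dhx36, which unwinds G-quadruplexes, by 0.4, and Ddx6, which represses translation and activates decapping, by 0.28. Dhx34, known from nonsense-mediated decay, did not pass (-0.16, adjusted p = 0.172).

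In the mitochondrial pair Ddx28, which helps to build the mitochondrial ribosome, had signals of 1.83, 1.79, 1.47 and 1.7 in control and 0.78, 0.75, 0.81 and 0.82 in knockdown cells. Its change of -0.91 (limma adjusted p = 4.04e-05) came with a very narrow range in the knockdown. Dhx30, also found in mitochondria, gave -0.06 (adjusted p = 0.575). Among members with other or little known roles, Dhx32 went from 3.67, 3.73, 3.93 and 3.87 to 2.89, 2.99, 2.69 and 2.64, a change of -1 (SE 0.1, limma adjusted p = 6.09e-05). Its groups were 0.68 apart at their nearest. Ddx11, a DNA helicase of sister chromatid cohesion, and Ddx59 both fell by 0.56. A second probe of Ddx59 gave -0.28 with overlapping groups and did not pass (limma adjusted p over probes = 0.184). Ddx26b, now named Ints6l, a relative of an Integrator subunit, fell by 0.2, while Dhx57 (0.33) and Dhx40 (-0.02) did not pass. Ddx11 and Ddx26b are members through the name rule and are counted with the RNA helicases throughout.

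The helicases that sense viral RNA split. Ddx58 encodes RIG-I, which detects viral RNA in the cytoplasm, and Dhx58 encodes LGP2, a relative without signalling domains that modulates it. Ddx58 had signals of 0.68, 0.66, 0.79 and 0.77 in control and -0.14, -0.35, -0.5 and -0.29 in knockdown cells, and was 2.06-fold lower (change -1.04, SE 0.09, limma adjusted p = 1.7e-05). Dhx58 was at -2.16, -2.57, -3.05 and -2.73 in control and at -1.36, -1.44, -1.58 and -1.56 in knockdown cells, and was 2.21-fold higher (change 1.14, SE 0.17, limma adjusted p = 0.000593). On the authors' deposited values its rise was 0.66, or 1.58-fold (limma adjusted p = 0.000112). Neither gene's groups overlapped, although the control arrays of Dhx58 spread over 0.89. Their changes lay 2.19 (SE 0.22) apart, a contrast that was picked after the values were seen and has no test. Within the 3 slides Ddx58 changed by -0.8, -1.2 and -0.97 and Dhx58 by 1.22, 1.38 and 0.6.

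A second probe of Ddx58 was well above background on 2 arrays of each group and was not tested, with signals between -4.48 and -2.91 in control and between -4.14 and -3.75 in knockdown cells. The probe of Ddx60, a cofactor of RNA sensing, ran from -6.58 to -6.06 and from -6.4 to -5.98 at background. Other genes of the interferon response, to which Ddx58, Dhx58 and Ddx60 are known to belong, did not share a direction. Of 22 on the array 14 were tested, of which 7 (50%) rose and 4 (28.6%) fell, with a median change of 0.54. Over all genes tested 29.3% rose and 28.7% fell. Bst2, which tethers virions, changed by 2.15, the signal transducer Stat2 by 1.5 and the chemokine Cxcl10 by 2.21, whereas Oasl2 of the oligoadenylate synthetase family changed by -3.34. The classical targets Ifit1, Ifit3, Mx1 and Rsad2 were among the 8 that were too dim in both groups to be tested.

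The largest change of any helicase was a rise of Ddx4, the mouse homologue of Vasa and a defining helicase of germ cells, where it works in the piRNA pathway. Its signals were -1.23, -1.35, -1.44 and -1.07 in control and 0.49, 0.64, 0.67 and 0.42 in knockdown cells. The groups were 1.49 apart at their nearest, and the gene was 3.55-fold higher (change 1.83, SE 0.1, limma adjusted p = 1.97e-06). The change was 1.84, 1.91 and 1.65 within the slides. Ddx43, the other helicase linked to germ cells, gave 0.11 (adjusted p = 0.648). Of 5 germ cell markers, the meiotic chromosome protein Sycp3 (3.79) and the piRNA factor Mael (2.46) rose, Nanos3 (-1.59) and Dppa3 (-0.99) of early germ cells fell, and Dazl (0.1, adjusted p = 0.627) was at -2.1 ± 0.13 and -2 ± 0.34. These markers averaged -0.14 to 0.12 per array in control and 0.59 to 0.9 in knockdown cells, and their part in the rise of Ddx4 was not tested.

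**Figure D3:**
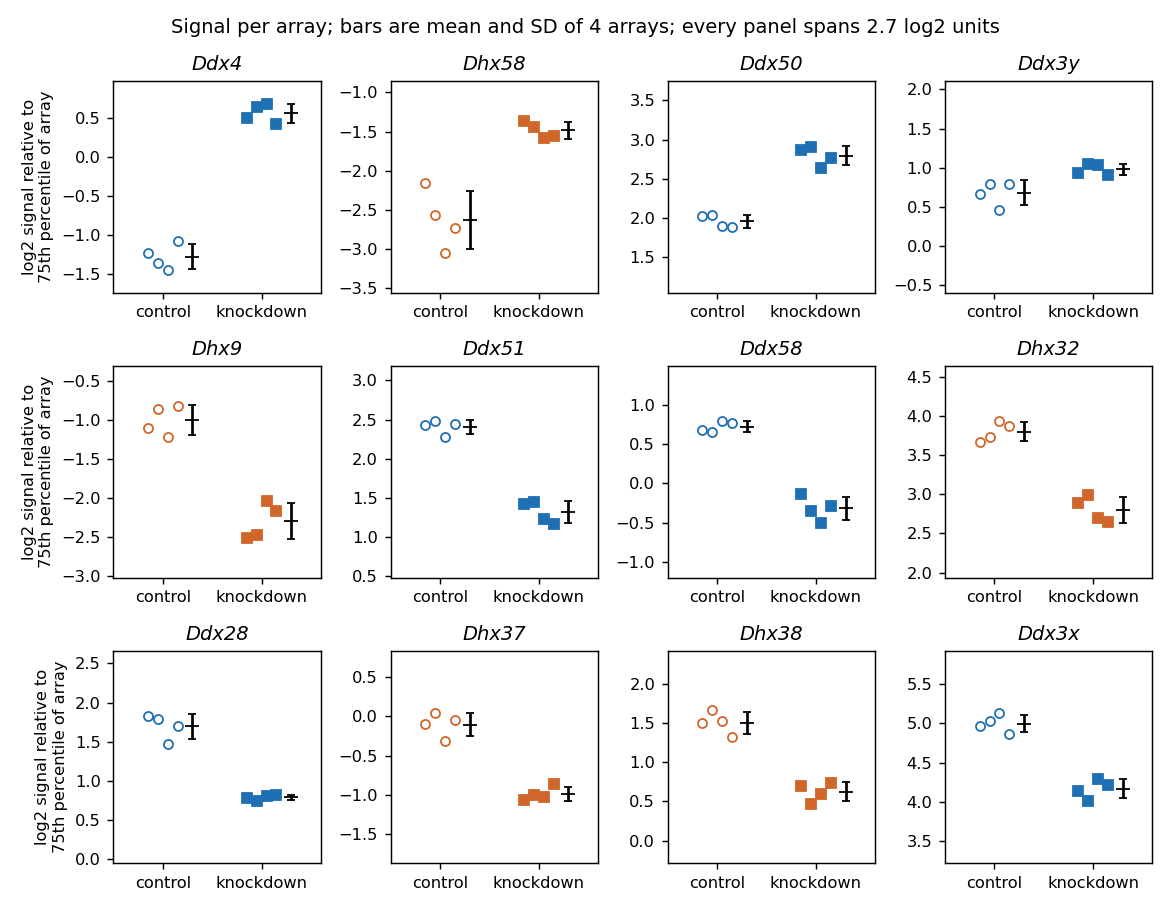
Log2 signal relative to the 75th percentile of the array (y axis) on each control array (open circles) and knockdown array (filled squares) for the 4 helicases called higher and the 8 with the largest falls; bars give mean and SD of 4 arrays, and every panel spans the same height. No panel has overlapping groups, and Ddx4 shows the widest gap, from -1.07 to 0.42.

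The region before the start of Ddx4 is shown because this gene changed most. RefSeq's promoter table (GRCm38.p6) holds windows for 47 of the 53 genes, with 250 bases before and 50 after the start. Ddx6, Ddx11, Ddx23, Ddx39, Dhx38 and Dhx58 had none. The upstream part for Ddx4 lies at chr13:112652311-112652560 on the minus strand, in capitals the hexamer CACGTG, which bHLH factors such as Myc and Usf bind.
Ddx4: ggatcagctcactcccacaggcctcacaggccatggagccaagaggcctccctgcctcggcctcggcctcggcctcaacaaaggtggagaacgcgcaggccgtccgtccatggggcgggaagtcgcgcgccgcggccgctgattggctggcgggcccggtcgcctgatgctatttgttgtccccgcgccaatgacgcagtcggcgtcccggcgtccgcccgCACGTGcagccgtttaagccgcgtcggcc

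Its 300-base window held 38 CG dinucleotides. Over the 47 helicase windows, which include that of the untested Ddx60, the median was 24 (range 4 to 41), against 21 over the 11484 tested genes with a window and 8 over all 27025 genes of the table. CACGTG, which reads the same on both strands, occurred in the windows of 7 helicases (14.9%), namely Ddx4, Ddx5, Ddx25, Ddx42, Dhx33, Dhx35 and Dhx40, against 11.3% of tested genes and 8.09% of all genes. The 6 besides Ddx4 had changes from -0.47 to -0.02. The core of the interferon-stimulated response element, searched as GAAA, any 2 bases and GAAA on both strands, occurred in those of Ddx49, Ddx58 and Ddx60 (6.38%), against 3.23% of tested genes and 3.99% of all genes. Dhx58 has no window and could not be searched. The TATA box letters TATAAA, also searched on both strands, were in 6 windows (12.8%), against 9.67% of tested genes and 15.7% of all genes. These are matches of letters, and binding was not measured.

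Several genes carried more than 1 probe, and some of these probes disagreed in size. At the probe level 46 of 67 tested helicase probes fell and 4 rose, while 57% of all 29091 tested probes passed and 28.1% fell. No gene had probes called in opposite directions. The second probe of Ddx17, above background on no array, was not tested. Among 13 genes with 2 or 3 tested probes, 17 probe pairs were compared by an exact two-sided permutation test of their difference within each array, for which 4 arrays against 4 give at the smallest p = 0.0286. This smallest value was reached by 7 pairs, from Dhx40, Ddx31, Ddx21, Ddx46, Ddx3x and Ddx5, the last with 2, and was 0.0695 after Benjamini-Hochberg adjustment over the 17.

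The first 30 bases of probes for 3 genes are given, because the size of the change turned on the probe in Dhx40 and Ddx31 and not in Ddx18. All probes are 60 bases long, their positions are those of the files on build mm9, and the distances within a gene are the same on the genome and in the transcript that the array design lists, so that no intron lies between the probes of a pair.
Dhx40 probe A, chr11:86583304-86583363, minus strand: ggccttaactggtatcaaacagtgtcactg
Dhx40 probe B, chr11:86582551-86582610, minus strand: ccaacacttcactaatgtttcaaatcaaaa
Ddx31 probe A, chr2:28760626-28760685, plus strand: agcttgccagattaagcagccacatgtgta
Ddx31 probe B, chr2:28761031-28761090, plus strand: ggtttgaaagaggacccctggagcgtatcg
Ddx18 probe A, chr1:123450472-123450531, minus strand: ccccttCCCAGTACCCTTTAAAAAGgaact
Ddx18 probe B, chr1:123450470-123450529, minus strand: cctcCCCAGTACCCTTTAAAAAGaaacttt

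Capitals mark the 19 bases that the 2 Ddx18 stretches share. In each pair probe A is the brighter and stands for the gene, and probe B lies further along the transcript. For Dhx40, probe A had signals of 3.49, 3.53, 3.73 and 3.51 in control and 3.63, 3.46, 3.53 and 3.58 in knockdown cells, whereas probe B, 753 bases on, went from -0.44, -0.36, -0.1 and -0.42 to -1.48, -1.39, -1.69 and -1.73. Probe A's groups overlapped (change -0.02) and probe B's were 0.95 apart (change -1.25, limma adjusted p over probes = 2.95e-05). The difference between the changes was -1.23 (SE 0.1), and the call for Dhx40 rested on which probe stood for it.

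Ddx31 gave 2.51, 2.55, 2.62 and 2.48 in control and 2.45, 2.28, 2.25 and 2.29 in knockdown cells with probe A (change -0.22). Probe B, 405 bases on, gave 1.55, 1.61, 1.62 and 1.52 and then 0.65, 0.5, 0.55 and 0.65 (change -0.99), so both fell but probe B by far more. The 2 Ddx18 probes are listed as starting 2 bases apart, yet at that offset the bases next to the capitals differ. Over their full length the longest run they share is 25 bases. They gave -0.6 and -0.59, with within-array differences, B minus A, of -0.31 to -0.26 in control and -0.32 to -0.21 in knockdown cells.

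In Ddx21 the less bright probe, 1545 bases nearer the transcript's start, changed by -0.96 against -0.28. Ddx46 gave -0.74 and -0.16, and only the probe nearer the start passed the test. The 3 probes of Ddx5 gave -0.34, -0.84 and -0.58, and those of Ddx3x -0.83, -0.66 and -0.91. In each of these genes all probes had a change below 0. Between probes of different helicase genes the longest shared stretch was 14 bases, in Ddx52 and Dhx32. Whether a probe also bound the transcript of a paralogue was not tested.

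**Figure D4:**
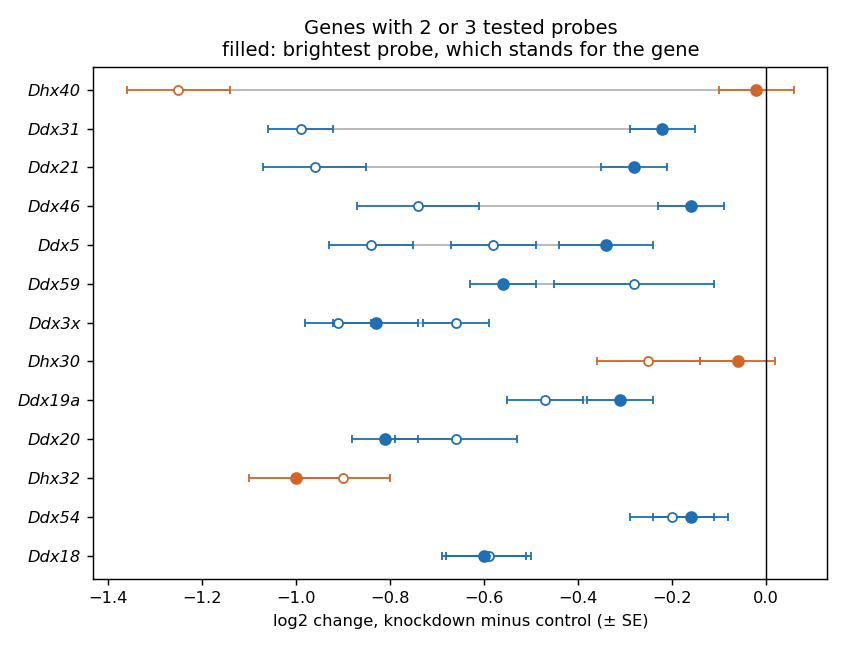
Log2 change, knockdown minus control (x axis, ± SE from limma), of each probe of the 13 helicase genes with 2 or 3 tested probes, ordered by the distance between their probes' changes; filled points stand for the gene. The probes of Dhx40 lie furthest apart, at -1.25 and -0.02, and those of Ddx18 lie on top of each other at -0.59 and -0.6.

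Of the 38 calls, 24 (21 lower and 3 higher) held under all 23 alternatives, among them Ddx4, Ddx50, Dhx58, Dhx9, Ddx51 and Ddx58. With the 2 knockdown arrays of each number averaged, 32 of 38 held, and with slide 2 alone, the only slide with 2 arrays of each group, 25 held. Leaving out single arrays ended the calls of 5 members: Ddx11 (without control array 3 or 4, or knockdown array 1 or 4), Ddx23 (control 2, 3 or 4, knockdown 1 or 2), Ddx26b (control 1 or 2, knockdown 3 or 4), Ddx31 (control 2, knockdown 2, 3 or 4) and Ddx3y (knockdown 2 or 3), with adjusted p between 0.0504 and 0.0792. Without control array 3, Ddx1 (-0.32), Ddx47 (-0.25) and Dhx15 (-0.31) also passed as lower and Ddx43 (0.3) and Dhx57 (0.48) as higher. Dhx34 (-0.24) passed as lower without knockdown array 1, and Ddx46 (-0.2) without knockdown array 2.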

How the data were processed

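RNA (100 ng per sample) was reverse-transcribed from oligo-dT, amplified by T7 polymerase and labelled with Cy3, per the labels' protocols. Per the file headers, spot intensities were extracted with Agilent Feature Extraction 10.7.3.1 (design 028005), background-subtracted and detrended within each array, with a substitute for dim spots. The authors' deposited log2 values, whose making is not given in the sources used here and whose 8 columns each have a median of 7.1, served as an alternative.

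Spots of a probe were averaged without outliers, log2 was taken and each array's 75th percentile (483 to 696 units) of non-control spots subtracted. Probes well above background on all arrays of a group (29091) were tested with limma 3.58.1 (lmFit, eBayes, R 4.3.3), two-sided, Benjamini-Hochberg over all genes, threshold 0.05. The fit was first run on simulated arrays with independent noise and few changed genes. In the data 58% of genes passed and arrays may be repeats, so the simulation does not show how the fit performs here. The brightest tested probe stood for a gene. Names were updated through RefSeq (66 of 70 member probes by accession, 4 by symbol). Array by array values are given for the 10 largest rises and falls among called members without overlap, where so many exist, and 9 others set by name; other lists name up to 4 called genes with the smallest adjusted p. The members and lists were chosen with earlier results of these data known. The slide (3, each scanned once) was tried as a block, as were other scalings, background corrections, filters and leaving arrays out.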

Additional observations from a re-analysis of the deposited data

Results flagged for a closer look

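In 5 of 104 groups of 4 arrays (52 helicase genes, 2 groups each) an end array stood apart from the other 3 by a larger share of the group's range than Dixon's 95% critical value allows, which chance gives in about 1 of 20 groups. Ddx19b had 2.15 on control array 4, with the others between 2.35 and 2.39. Dhx40 had 3.73 on control array 3, with the others between 3.49 and 3.53, and Ddx46 had 2.28 on control array 2, with the others between 2.22 and 2.23. On knockdown array 1, Ddx31 had 2.45 (others 2.25 to 2.29) and Ddx42 had 2.79 (others 2.68 to 2.7). The call for Ddx42 held without that array, and so did that for Ddx31.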

How the results depend on the processing

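Both families kept a negative median under every alternative. The Ddx median of -0.38 was -0.29 with normexp background and quantile normalization, -0.3 with quantile normalization alone, -0.28 on the authors' values, -0.55 with median scaling, -0.44 with the mean of a gene's probes, and -0.46 and -0.28 within slides 1 and 2. The Dhx median of -0.39 was -0.28, -0.29, -0.28, -0.56 and -0.44 under the same first 5, -0.35 within slide 3 and -0.35 without both knockdown arrays numbered 3. Leaving out each array in turn gave Ddx medians of -0.41 to -0.34, Dhx medians of -0.43 to -0.34, 22 to 25 Ddx and 9 to 10 Dhx genes lower, and 2 to 4 and 1 to 2 higher; the second Dhx rise came without control array 3. Slide 2 alone left 15 Ddx genes lower. With median scaling, all genes called higher came to 4156 in place of 6369.

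Called members lost their call, never their direction. Ddx26b and Ddx31 each lost it in 12 of 23 alternatives, Ddx23 in 11, Ddx3y in 9, Ddx11 and Ddx56 in 7, Ddx5 in 5, Ddx21 and Ddx6 in 4, Ddx19a in 2, and Ddx10, Ddx25, Dhx35 and Dhx36 on slide 2 alone. Members not called passed as lower as follows: Dhx40 (-0.63) and Ddx46 (-0.45) with the mean of a gene's probes, Ddx46 (-0.63, -0.74 and -0.63) with both normexp settings and on the authors' values, Ddx54 (-0.2) with normexp and the 75th percentile, Ddx46 (-0.33), Ddx47 (-0.34) and Dhx15 (-0.4) with median scaling, and Dhx34 (-0.26) without both knockdown arrays numbered 2. For Ddx46, the probe that stood for the gene was a different one with both normexp settings and on the authors' values. Ddx19b passed as higher (0.26 to 0.29) with both quantile normalizations and on the authors' values. Signs turned in members that were not called: Ddx55 to -0.05, -0.01, -0.05 and -0.06, Dhx30 to 0.06, 0.07 and 0.05, and Dhx40 to 0.09, 0.1 and 0.08 under normexp with quantile, quantile and the authors' values (Ddx55 also under median scaling); Ddx24 to -0.11, Ddx43 to -0.06 and Dhx8 to -0.11 under median scaling; Ddx55 to 0, Dhx30 to 0.01 and Dhx8 to -0.04 without both knockdown arrays numbered 3; Ddx1 to 0.07, Ddx24 to -0.04 and Ddx43 to -0.15 on slide 2. Leaving out single arrays took Ddx55 from -0.25 to 0.4, Dhx40 from -0.04 to 0.04 and Dhx8 from -0.1 to 0.24. The causes were not tested.

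Between control and knockdown arrays of the same replicate number, deviations from the group mean correlated weakly (0.11, -0.12, 0.11 and -0.19). Pairs of different numbers were not compared, so whether the numbers pair the arrays cannot be told. With the replicate numbers as a block 35 of 38 calls held, with 23 Ddx and 9 Dhx genes lower. Signal over background limits Ddx60 and the second probes of Ddx58 and Ddx17.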
